A study of Arabidopsis thaliana with 12 samples.

Results

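The 52 genes described here encode subunits of the Arabidopsis 26S proteasome, the protease that degrades proteins tagged with ubiquitin. They were taken by gene identifier from annotated subunit families: 23 genes of the 20S core (12 alpha and 11 beta subunits), 15 genes of the base of the 19S regulatory particle (11 of them RPT ATPases), 12 genes of its lid and 2 genes of ubiquitin receptors. The table held 25729 genes, and all 52 subunit genes were among the 19274 that reached 1 FPKM (fragments scaled by exon length and by the reads of the library) in at least 3 libraries. The members were selected on annotated identity, but the family was chosen by way of earlier results on FPKM in these 4 groups, in which the genotypes and harvests had already been compared. The counts over the family below are therefore a description, set beside the same share of all genes where it was computed, and support nothing further.

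In the core, rings of alpha subunits (PAA to PAG) close off a chamber that is lined by rings of beta subunits (PBA to PBG), of which PBA1, the PBB pair and the PBE pair carry the catalytic sites. The regulatory particle binds ubiquitinated proteins and removes their ubiquitin, and its RPT ATPases unfold them and feed them into the core. Plants use this route to remove regulators of light, hormone and clock signalling, and many Arabidopsis subunits are encoded by pairs of related genes.

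RNA sequencing was done on total RNA of whole seedlings, with directional libraries. Seedlings were homozygous tic-2 mutants (tic-2 -/-, in the Col-0 ecotype) or Col-0 wild type. TIC stands for TIME FOR COFFEE, which encodes a nuclear protein of the plant circadian clock. All seedlings were 10 days old, grew at 22 °C under conditions labelled LD on MS medium with 3% sucrose, and were collected at postdusk (ZT 12, hours after lights-on) or predawn (ZT 0). Each of the 4 groups had 3 libraries. The groups were tic-2 at postdusk, Col-0 at postdusk, tic-2 at predawn and Col-0 at predawn. The series' design text calls the libraries biological replicates, and p-values measure only the spread between them. In whole seedlings, fewer cells of a type and less RNA per cell cannot be told apart.

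The genotype and time in the column names and sample titles were used, although the short description of 6 samples names another group. In Col-0 the morning transcripts CCA1 and LHY were 0.465 to 0.769 FPKM at postdusk and 239 to 417 FPKM at predawn, which fits the labelled times. In tic-2 they were 29.4 to 69.6 FPKM at postdusk and 151 to 198 FPKM at predawn, so the harvests were in the same order, but at postdusk both were far higher in tic-2 than in Col-0 (log2 fold changes 5.13 for CCA1 and 4.45 for LHY). The labels do not state the lesion of tic-2, so the TIC level says nothing about the genotype. It averaged 79.7 ± 23.1 FPKM in tic-2 and 60.9 ± 2.93 FPKM in Col-0 at postdusk, and 77.5 ± 18.4 FPKM in tic-2 and 54.9 ± 2.46 FPKM in Col-0 at predawn (SD, n = 3 each). Depth was 19255017 to 21750331 reads per library, and each of the 52 genes had 40 to 5188 reads in a library. All 5 leaf markers and all 5 root markers were expressed, with root sums of 27.7 to 28.6 FPKM in tic-2 and 22.9 to 39.8 FPKM in Col-0 at postdusk and no root marker called. Leaf sums were 11670 to 14330 FPKM in tic-2 and 11530 to 12080 FPKM in Col-0 at postdusk, where LHCA4 and LHCA3 were higher in tic-2 (log2 fold changes 1.37 and 0.747) and the other 3 leaf markers were not called. At predawn all 5 leaf markers were called, 2 higher and 3 lower in tic-2. The 5 seed storage markers, none at 0, summed to 174 to 360 FPKM in tic-2 and 112 to 282 FPKM in Col-0 at postdusk, and these sums overlapped. Of the 5, SESA1 and SESA3 were higher in tic-2 at postdusk (log2 fold changes 3.99 and 4.84), while CRU3 (0.544), OLEO1 (0.876) and CRA1 (-0.59) were not called, and at predawn SESA3 alone was called. The part of the clock, leaf and seed transcripts in the results below was not tested. The 4 floral markers stayed below the filter, and their summed level was 0.662 to 1.39 FPKM in tic-2 and 0.443 to 0.523 FPKM in Col-0 at postdusk.

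Sequence upstream of the annotated gene start was read for all 52 genes from the RefSeq TAIR10.1 assembly, 250 bases each. The window was searched on both strands for TGGGC (the core of the proteasome-related element, bound by NAC transcription factors), AAAATATCT (the evening element, bound by CCA1) and CACGTG (the G-box, bound by PIF factors); none of these motifs overlaps another. TGGGC was present before 25 of the 52 genes (48.1%) and before 22.7% of 27443 protein-coding genes. The share was 52.2% in the core, 46.7% in the base and 6 of 12 genes in the lid, and neither receptor gene had a match. AAAATATCT was present before 0 of the 52 genes and 2.4% of all genes, and CACGTG before 1 subunit gene (RPT1A, 1.9%) and 6.5% of all genes. A match describes these letters in this window and no more. The windows below belong, in each subcomplex, to the gene with the largest postdusk fall among those whose exons overlap no other gene. They are the PBE-type core subunit AT3G26340 (chr3:9652937-9653186, minus strand), the RPT6-type ATPase AT5G20000 (chr5:6756383-6756632, plus strand) and the lid subunit EMB2719 (AT1G20200, chr1:7004433-7004682, minus strand). Each is written 5′ to 3′ on the gene's strand, and capitals mark TGGGC or its complement GCCCA.
AT3G26340: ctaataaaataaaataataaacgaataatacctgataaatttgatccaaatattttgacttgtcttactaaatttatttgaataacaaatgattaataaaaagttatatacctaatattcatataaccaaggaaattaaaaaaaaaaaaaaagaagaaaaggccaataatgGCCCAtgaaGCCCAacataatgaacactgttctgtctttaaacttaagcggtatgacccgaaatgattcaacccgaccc
AT5G20000: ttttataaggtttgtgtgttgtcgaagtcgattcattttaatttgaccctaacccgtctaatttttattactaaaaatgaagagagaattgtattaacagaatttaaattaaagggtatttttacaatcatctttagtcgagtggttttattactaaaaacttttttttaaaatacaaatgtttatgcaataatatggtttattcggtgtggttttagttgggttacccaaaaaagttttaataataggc
EMB2719: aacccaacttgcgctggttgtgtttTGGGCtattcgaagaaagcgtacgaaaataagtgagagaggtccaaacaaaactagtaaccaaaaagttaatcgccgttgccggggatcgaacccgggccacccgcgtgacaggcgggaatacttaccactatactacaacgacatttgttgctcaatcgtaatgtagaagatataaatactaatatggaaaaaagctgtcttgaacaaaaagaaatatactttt
AT3G26340 has 2 matches close to its gene start, AT5G20000 has 0 and EMB2719 has 1 at the far end of its window. The EMB2719 window also holds a tRNA gene of 72 bases, AT1G20210, at 7004514 to 7004585 on the opposite strand.

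At postdusk, transcripts of the proteasome were lower in tic-2 across every subcomplex. Tested on log2(FPKM + 1) with limma and Benjamini-Hochberg adjustment over all 19274 genes, 42 of the 52 genes fell at an adjusted p under 0.05 (19.8% of all genes did) and 0 rose (9.71% of all genes). At an unadjusted p under 0.05, 48 genes were lower and 0 higher. The share of all genes at that threshold was not computed, so these counts cannot be set beside the shares given here. The falls comprised 18 of 23 core genes, 13 of 15 base genes, 10 of 12 lid genes and 1 of 2 receptors. Every tic-2 library lay below every Col-0 library for 48 of the 52 genes (32.5% of all genes), and above it for 0 (14.3% of all genes). The median log2 fold change was -0.387 over the 52 genes and -0.123 over all genes tested. Changes are small in size and are on the log2(FPKM + 1) scale, which understates the change of low genes.

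**Figure D1:**
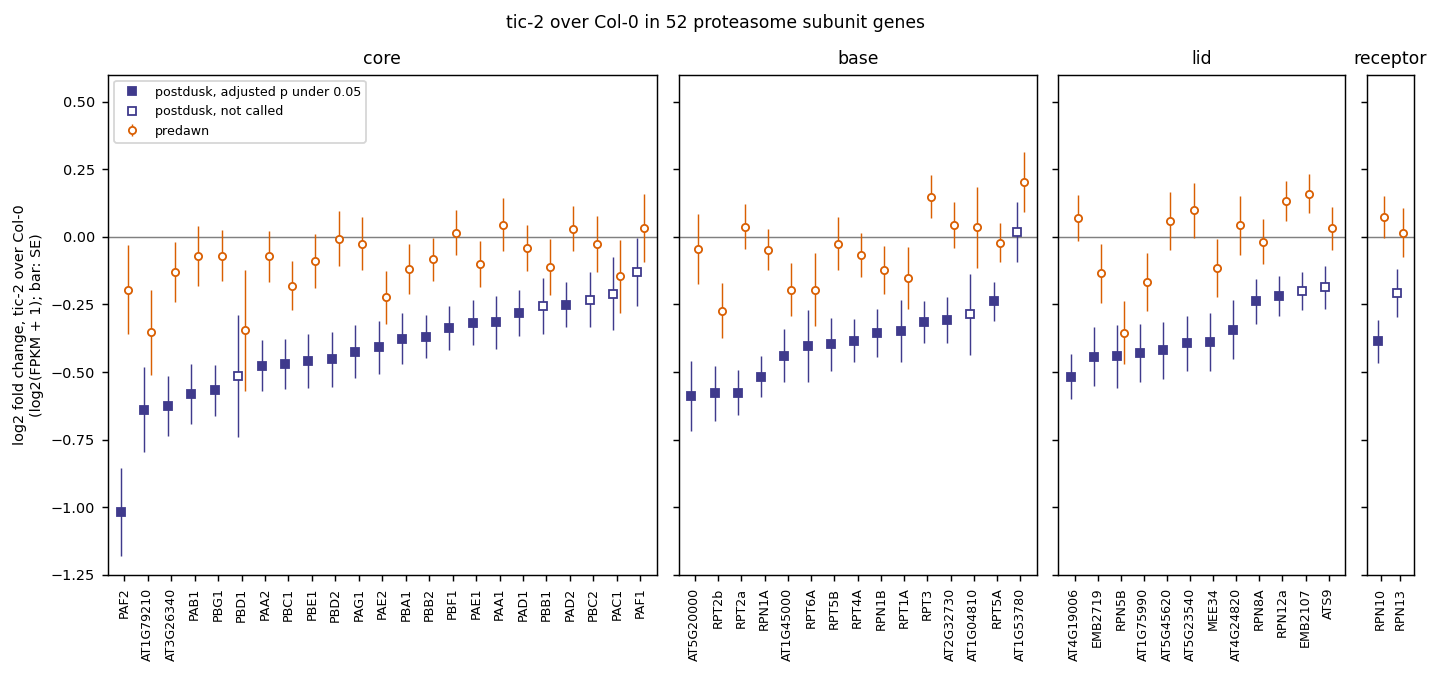
Log2 fold change, tic-2 over Col-0, of each of the 52 subunit genes at postdusk (filled where called at an adjusted p under 0.05) and at predawn (open circles), grouped into core, base, lid and receptors, with error bars of 1 SE. At postdusk 51 of the 52 values are below 0 (12419 of the 19274 genes tested are), the exception being AT1G53780 at 0.019. The predawn values lie on both sides of 0.

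The counts at postdusk depended on the scaling of the libraries. All genes tested had 1872 rises and 3814 falls in the deposited values, and 2490 rises and 1871 falls after rescaling the libraries by median-of-ratios size factors, which moved the median of all genes by 0.108. After that rescaling 23 subunit genes fell at postdusk (9.71% of all genes did), comprising 12 core, 6 base, 4 lid and 1 receptor gene, and 0 rose. Relative to the median of all genes, the median of the 52 genes was -0.264 in the deposited values, -0.252 after the rescaling and -0.278 after quantile normalization. In each library, the median deviation of the 52 genes from their own mean over all libraries was -0.182, -0.118 and -0.236 in tic-2 at postdusk, against 0.157, 0.262 and 0.192 in Col-0 at postdusk. After the rescaling it was -0.123, -0.1001 and -0.159 in tic-2 and 0.109, 0.156 and 0.135 in Col-0. The genotypes did not overlap under either scaling.

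**Figure D2:**
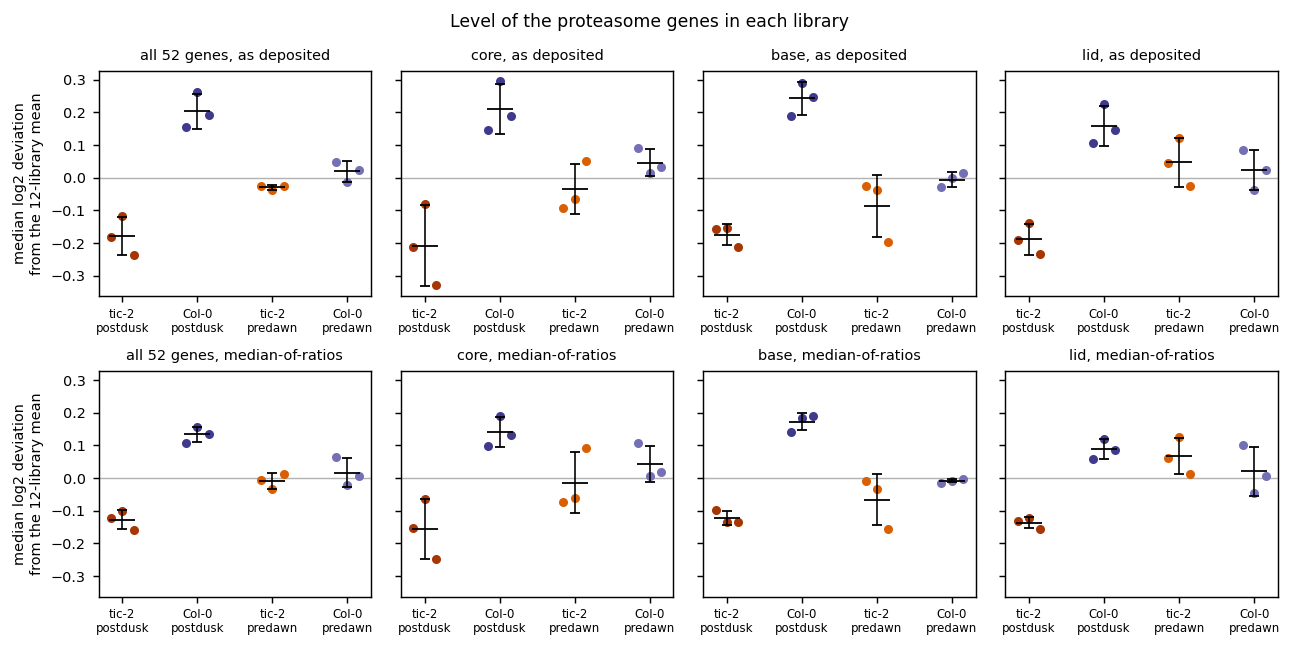
Median log2 deviation from each gene's mean over the 12 libraries, per library (points) with group mean and SD, for all 52 subunit genes and for core, base and lid, in the deposited values and after median-of-ratios rescaling. For all 52 genes the tic-2 postdusk libraries lie between -0.236 and -0.118 in the deposited values and the Col-0 postdusk libraries between 0.157 and 0.262.

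Among the alpha subunits, which form the gated outer rings of the core, 10 of 12 genes fell at postdusk (19.8% of all genes did). The median log2 fold change was -0.363 over the 12 genes. After median-of-ratios rescaling 6 of them fell (9.71% of all genes). PAF2 (AT1G47250), the lowest-expressed of the 52 genes with a mean of 3.37 FPKM over all libraries, had 2.48, 1.68 and 1.75 FPKM in tic-2, against 4.45, 4.86 and 5.64 FPKM in Col-0. The groups did not overlap, and the log2 fold change was -1.02 (SE 0.164, limma adjusted p = 0.00129). PAF2 shares 65.08% of its exon bases with GAMMA CA2 (AT1G47260), a gene on the opposite strand with 23.05 to 32.1 FPKM in tic-2 and 30.2 to 33.6 FPKM in Col-0 at postdusk. Whether reads were counted by strand is not given in the sources used here, so the values of PAF2 are uncertain. Its partner PAF1 (AT5G42790), the main PAF gene, had 61.2, 68.8 and 51.5 FPKM in tic-2 and 64.5, 69.7 and 63.4 FPKM in Col-0, and the groups overlapped (log2 fold change -0.13, limma adjusted p = 0.461).

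Both PAB genes fell. PAB1 (AT1G16470) had 31.6, 32.3 and 24.3 FPKM in tic-2, against 42.6, 46.1 and 43.9 FPKM in Col-0, a log2 fold change of -0.58 (SE 0.112, limma adjusted p = 0.00342). Its partner AT1G79210 had 25.7, 27.4 and 17.0 FPKM in tic-2, against 35.39, 40.04 and 33.57 FPKM in Col-0, a log2 fold change of -0.64 (SE 0.157, limma adjusted p = 0.0111). In both genes library C of tic-2 was the lowest. The other alpha genes called were PAA1, PAA2, PAD1, PAD2, PAE1, PAE2 and PAG1, with log2 fold changes between -0.477 (PAA2) and -0.251 (PAD2). PAC1 (AT3G22110) was not called at -0.211, although its groups did not overlap.

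Of the beta subunits 8 of 11 genes fell at postdusk (19.8% of all genes did). The median log2 fold change was -0.453 over the 11 genes. After median-of-ratios rescaling 6 of them fell (9.71% of all genes). PBA1 (AT4G31300), the subunit with caspase-like activity, had 52.7, 53.5 and 51.3 FPKM in tic-2, against 64.4, 72.5 and 68.5 FPKM in Col-0, a log2 fold change of -0.376 (SE 0.093, limma adjusted p = 0.0117, and 0.0794 after median-of-ratios rescaling). The groups did not overlap. For the trypsin-like PBB subunit, PBB2 (AT5G40580) fell by 0.369 on the log2 scale (limma adjusted p = 0.00572), and PBB1 (AT3G27430), the more abundant gene, was not called at -0.256 (limma adjusted p = 0.0815). For the chymotrypsin-like PBE subunit both genes fell. AT3G26340, whose upstream window with 2 matches is shown above, had 10.14, 11.27 and 9.39 FPKM in tic-2, against 15.3, 16.6 and 17.1 FPKM in Col-0 (log2 fold change -0.62, SE 0.111, limma adjusted p = 0.00226). PBE1 (AT1G13060) had 45.8, 49.5 and 38.2 FPKM in tic-2, against 58.1, 66.7 and 59.2 FPKM in Col-0 (log2 fold change -0.458, SE 0.1, limma adjusted p = 0.00641). Each tic-2 library was below each Col-0 library in both PBE genes.

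The remaining beta subunits have no catalytic site. PBG1 (AT1G56450) had 39.3, 45.7 and 36.6 FPKM in tic-2, against 55.9, 62.9 and 62.5 FPKM in Col-0 (log2 fold change -0.57, SE 0.095, limma adjusted p = 0.00154). PBC1, PBD2 and PBF1 had log2 fold changes of -0.469, -0.453 and -0.336, and all were called. PBF1 (AT3G60820), the core gene with the highest mean (76.7 FPKM), shares 12.47% of its exon bases with AT3G60810 on the opposite strand, which was itself lower at postdusk (log2 fold change -0.523, limma adjusted p = 0.00329). PBC2 was not called at -0.232 and its groups overlapped. PBD1 (AT3G22630) had 16.0, 17.0 and 7.38 FPKM in tic-2, against 19.9, 17.9 and 18.0 FPKM in Col-0, so that library C stood far below the other tic-2 libraries, and its log2 fold change of -0.515 was not called (limma adjusted p = 0.103).

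**Figure D3:**
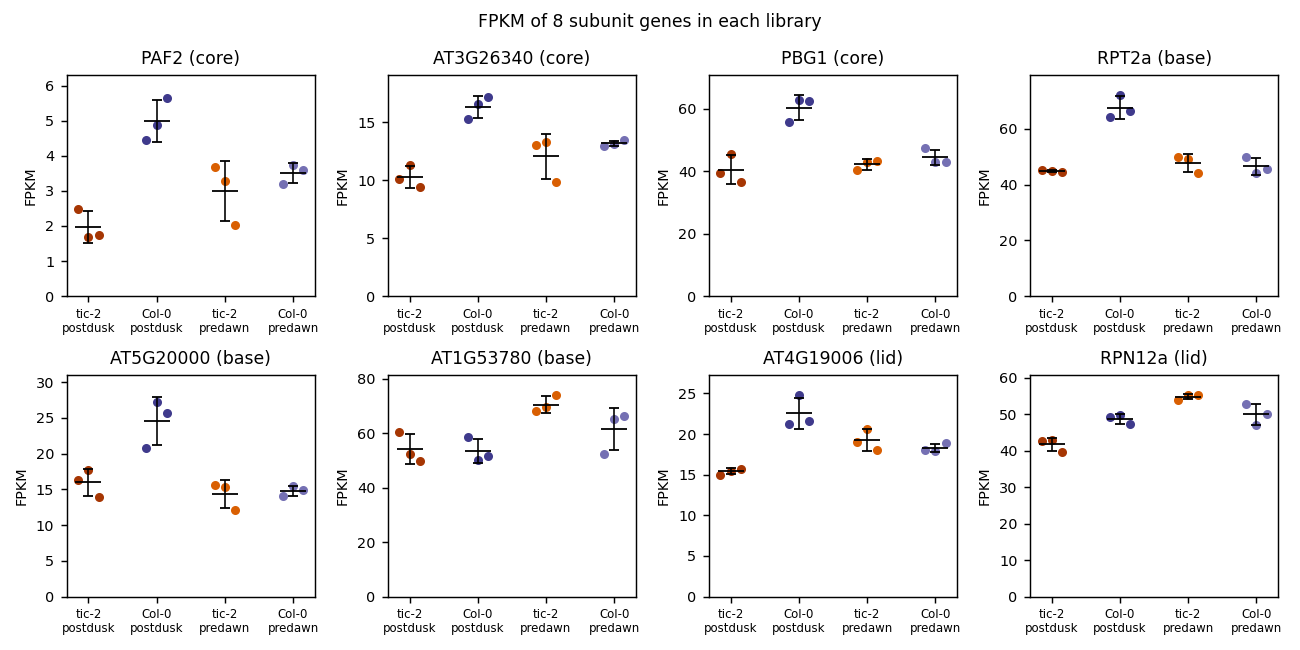
FPKM of PAF2, AT3G26340, PBG1, RPT2a, AT5G20000, AT1G53780, AT4G19006 and RPN12a in each library (points), with the mean and SD of each group, in the order tic-2 postdusk, Col-0 postdusk, tic-2 predawn and Col-0 predawn. RPT2a lies between 44.5 and 45.5 FPKM in tic-2 at postdusk and between 64.1 and 72.2 FPKM in Col-0 at postdusk, while AT1G53780 overlaps between the genotypes at postdusk.

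Levels over all libraries spanned 17.4 FPKM (RPN1B) to 72.6 FPKM (RPT5A) in the base and 8.91 FPKM (RPN5B) to 63.5 FPKM (AT4G24820, the RPN7 gene) in the lid. In the base, 10 of the 11 RPT ATPase genes fell at postdusk (19.8% of all genes did). Of these, RPT1A, RPT3, RPT5A, RPT5B and RPT6A were not called after median-of-ratios rescaling (limma adjusted p = 0.0526 to 0.265). RPT2a (AT4G29040) had 45.5, 44.8 and 44.5 FPKM in tic-2, against 64.1, 72.2 and 66.4 FPKM in Col-0, with no overlap (log2 fold change -0.58, SE 0.083, limma adjusted p = 0.000673). Its partner RPT2b (AT2G20140) had 18.2, 19.4 and 16.4 FPKM in tic-2, against 26.7, 28.6 and 26.8 FPKM in Col-0 (log2 fold change -0.579, SE 0.102, limma adjusted p = 0.00206). AT5G20000, paired with RPT6A, had 16.3, 17.7 and 13.9 FPKM in tic-2, against 20.8, 27.2 and 25.7 FPKM in Col-0, also with no overlap (log2 fold change -0.59, SE 0.128, limma adjusted p = 0.00627). RPT6A (AT5G19990) lies 1317 bases away on chromosome 5 and is 94.4% identical in coding sequence, so the split of reads between these copies is uncertain. The other RPT genes called, RPT1A, RPT3, RPT4A, AT1G45000, RPT5A, RPT5B and RPT6A, had log2 fold changes between -0.439 (AT1G45000) and -0.239 (RPT5A).

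AT1G53780 was the only gene of the 52 with a positive value at postdusk. This ATPase gene is paired with RPT1A (AT1G53750), from which 5488 bases on chromosome 1 separate it. Its coding sequence has 1863 bases against 1281 in RPT1A, and 1278 bases align. Its exons span 3522 bases against 1984 in RPT1A. The FPKM of AT1G53780 thus also covers sequence that does not align with RPT1A. It had 60.5, 52.4 and 49.8 FPKM in tic-2 and 58.5, 50.2 and 51.6 FPKM in Col-0, and the groups overlapped (log2 fold change 0.019, SE 0.111, limma adjusted p = 0.912). RPT1A had 61.1, 65.5 and 48.2 FPKM in tic-2, against 72.0, 81.8 and 68.3 FPKM in Col-0 (log2 fold change -0.348, SE 0.114, limma adjusted p = 0.039, and 0.15 after median-of-ratios rescaling).

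RPN1 and RPN2 are the large scaffold subunits of the base. RPN1A (AT2G20580) had 32.7, 30.5 and 34.6 FPKM in tic-2, against 47.2, 48.0 and 46.0 FPKM in Col-0 (log2 fold change -0.52, SE 0.076, limma adjusted p = 0.000796). RPN1B and the RPN2 gene AT2G32730 fell, with log2 fold changes of -0.355 and -0.309, and the other RPN2 gene, AT1G04810, was not called at -0.287 (limma adjusted p = 0.166). After median-of-ratios rescaling RPN1B and AT2G32730 were not called either (limma adjusted p = 0.0688 and 0.142).

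In the lid, the PCI-domain gene AT4G19006 of the RPN9 pair had 15.01, 15.51 and 15.75 FPKM in tic-2, against 21.3, 24.8 and 21.6 FPKM in Col-0, with no overlap (log2 fold change -0.52, SE 0.084, limma adjusted p = 0.00135). Its partner AT5G45620 fell by 0.42 on the log2 scale. AT5G23540, the gene of RPN11, the deubiquitinase that removes ubiquitin chains from substrates, had 45.5, 50.7 and 40.4 FPKM in tic-2, against 59.9, 61.2 and 58.5 FPKM in Col-0 (log2 fold change -0.394, SE 0.102, limma adjusted p = 0.0143). EMB2719 (AT1G20200) of the RPN3 pair, shown above with its upstream window, had 24.2, 23.3 and 22.6 FPKM in tic-2, against 31.7, 32.2 and 32.4 FPKM in Col-0 (log2 fold change -0.443, SE 0.109, limma adjusted p = 0.0113). All libraries of tic-2 were below those of Col-0 in these lid genes. The other lid genes called were AT1G75990, RPN5B, AT4G24820, RPN8A, MEE34 and RPN12a, between -0.442 (RPN5B) and -0.217 (RPN12a). EMB2107 of the RPN5 pair (-0.201, limma adjusted p = 0.0507) and ATS9, the RPN6 gene (-0.186, limma adjusted p = 0.0947), were not called, although their groups did not overlap.

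The ubiquitin receptor RPN10 (AT4G38630) had 40.3, 39.6 and 39.8 FPKM in tic-2, against 47.9, 56.3 and 53.5 FPKM in Col-0 (log2 fold change -0.386, SE 0.079, limma adjusted p = 0.00466). The other receptor, RPN13 (AT2G26590), was not called at -0.208 (limma adjusted p = 0.0998).

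At predawn few differences between the genotypes passed the test. RPN5B (AT5G64760), a lid gene, was the only one of 52 called lower (14.6% of all genes were), and 0 were called higher (13.1% of all genes). At an unadjusted p under 0.05, 4 genes were lower and EMB2107 was the 1 higher (share of all genes not computed). RPN5B had 7.69, 7.72 and 5.73 FPKM in tic-2, against 9.88, 9.16 and 8.65 FPKM in Col-0 (log2 fold change -0.355, SE 0.116, limma adjusted p = 0.0387). After median-of-ratios rescaling 1 gene was again called lower (13.6% of all genes). Groups did not overlap for 9 genes lower in tic-2 (24.5% of all genes) and for 3 genes higher in it (20.2% of all genes), which were EMB2107, AT1G53780 and RPN12a. The median log2 fold change was -0.047 over the 52 genes and -0.03 over all genes. The call of RPN5B was close to the threshold, as its adjusted p reached 0.124 over the alternative settings. With any 1 of the 6 Col-0 libraries left out 0 genes were called, although the postdusk libraries do not enter the predawn difference itself. Its log2 fold change ran from -0.418 to -0.231 with 1 library left out.

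Between the harvests, nearly all calls were higher at postdusk in Col-0 and all were lower at postdusk in tic-2. In Col-0 16 genes were higher at postdusk than at predawn (22.7% of all genes) and 1 was lower (14.4% of all genes). The 16 comprised 8 base, 4 core, 3 lid and 1 receptor gene, and after median-of-ratios rescaling 12 genes were higher (19.1% of all genes). The median log2 difference between harvests was 0.207 over the 52 genes and 0.05 over all genes. AT5G20000 rose most, with 20.8, 27.2 and 25.7 FPKM at postdusk against 14.01, 15.42 and 14.85 FPKM at predawn in Col-0 (log2 fold change 0.69, SE 0.128, limma adjusted p = 0.0012). RPT2a had 64.1, 72.2 and 66.4 FPKM at postdusk against 49.9, 44.2 and 45.7 FPKM at predawn (log2 fold change 0.53, SE 0.083, limma adjusted p = 0.000378). RPT3 (AT5G58290) had 66.4, 72.9 and 70.0 FPKM at postdusk against 53.6, 47.0 and 50.1 FPKM at predawn (log2 fold change 0.47, SE 0.078, limma adjusted p = 0.000563). In all of these ATPase genes the harvests were apart. PAE2 (AT3G14290), an alpha subunit gene, went the other way in Col-0, with 37.1, 39.6 and 37.6 FPKM at postdusk against 49.3, 46.0 and 45.9 FPKM at predawn (log2 fold change -0.296, SE 0.098, limma adjusted p = 0.0322). That call was lost when any 1 of the 6 Col-0 libraries was left out (adjusted p up to 0.106). The 16 genes are 30.8% of the 52, not far above the share of all genes. The count of 16 was 9 without Col-0 postdusk B, 10 without Col-0 predawn A or B and 26 without tic-2 predawn C. No share of all genes was computed for those fits.

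In tic-2 15 genes were lower at postdusk than at predawn (19.4% of all genes) and 0 were higher (18.5% of all genes), and 14 were lower after median-of-ratios rescaling (17.8% of all genes). At an unadjusted p under 0.05, 19 genes were lower and 0 higher (share of all genes not computed). The 15 genes are 28.8% of the 52, not far above the share of all genes. Their number was 7 in a fit of only the tic-2 groups and 28 with array weights. No share of all genes was computed for those settings. They comprised 8 of the 12 lid genes, 4 of the 23 core genes and 3 of the 15 base genes. The median log2 difference was -0.13 over the 52 genes, -0.325 over the lid, -0.136 over the core and -0.049 over the base, and -0.048 over all genes. AT1G04810, an RPN2 gene, had 16.0, 14.3 and 17.2 FPKM at postdusk against 30.2, 26.1 and 18.6 FPKM at predawn in tic-2 (log2 fold change -0.60, SE 0.150, limma adjusted p = 0.00782). PAE2 had 27.4, 33.4 and 25.1 FPKM at postdusk against 40.6, 38.9 and 40.9 FPKM at predawn (log2 fold change -0.48, SE 0.098, limma adjusted p = 0.00225), and this call held in all 21 alternative settings. AT1G75990 of the RPN3 pair had 8.46, 9.74 and 10.4 FPKM at postdusk against 12.4, 14.3 and 12.1 FPKM at predawn (log2 fold change -0.41, SE 0.107, limma adjusted p = 0.0102). Postdusk and predawn libraries did not overlap in these tic-2 genes, but library C at predawn was the nearest to postdusk in AT1G04810 and AT1G75990.

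The difference between the genotype effects at the harvests was tested as the genotype by time interaction in the same fit. It was negative for all 52 genes (12228 of the 19274 genes tested). After median-of-ratios rescaling it was negative for 50 of the 52 (10252 of the 19274). In the deposited values it was called lower for 12 of the 52 (8.59% of all genes) and higher for 0 (7.28% of all genes). At an unadjusted p under 0.05, 27 genes were lower and 0 higher (share of all genes not computed). The 12 were the core genes PAF2, PAB1 and PBG1, the base genes RPT2a, RPT3 and RPN1A, the lid genes AT4G19006, AT5G23540, AT5G45620, EMB2107 and RPN12a, and the receptor RPN10. RPT2a had the lowest adjusted p: its genotype effect was -0.576 at postdusk and 0.038 at predawn, a difference of -0.61 (SE 0.117, limma adjusted p = 0.00373). AT4G19006 followed, with -0.517 at postdusk and 0.069 at predawn, a difference of -0.59 (SE 0.119, limma adjusted p = 0.00537). In RPT2a the predawn libraries had 50.05, 49.4 and 44.17 FPKM in tic-2 and 49.9, 44.2 and 45.7 FPKM in Col-0, so the genotypes overlapped there. The median interaction was -0.308 over the 52 genes and -0.113 over all genes. The number called depended on scaling and on single libraries. After median-of-ratios rescaling 3 genes were called (RPT2a, RPN1A and AT4G19006, 5.55% of all genes). Leaving out 1 library gave 5 genes (without Col-0 predawn B or C, Col-0 postdusk B or tic-2 predawn B). It gave 6 genes without Col-0 postdusk C or tic-2 postdusk A, and 22 genes without tic-2 predawn C. No share of all genes was computed for these fits with 1 library left out.

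Core and regulatory particle were set side by side within each library as ratios, which cancel the scaling of the library, whereas sums keep it. Summed FPKM of the 52 genes was 1776, 1870 and 1679 in tic-2 against 2210, 2398 and 2242 in Col-0 at postdusk, and 1968, 2014 and 2015 in tic-2 against 2105, 2004 and 2025 in Col-0 at predawn. The sums were apart at postdusk and overlapped at predawn. They carry the scaling of the libraries, whose size factors at postdusk were 0.955 to 0.998 in tic-2 and 1.046 to 1.09 in Col-0. The ratio of summed core to summed base FPKM was 1.64, 1.84 and 1.65 in tic-2 against 1.70, 1.73 and 1.73 in Col-0 at postdusk, and 1.60, 1.62 and 1.94 in tic-2 against 1.86, 1.76 and 1.72 in Col-0 at predawn. The ratio of core to lid was 2.53, 2.69 and 2.47 in tic-2 against 2.63, 2.68 and 2.63 in Col-0 at postdusk. At predawn it was 2.28, 2.24 and 2.63 in tic-2 against 2.57, 2.58 and 2.58 in Col-0. The core to base ratios and the core to lid ratios at postdusk overlapped between the genotypes. At predawn the core to lid ratios overlapped through library C of tic-2 alone: the difference of the means was -0.193 with it (SD of 0.121 within groups) and -0.315 without it (SD of 0.06).

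**Figure D4:**
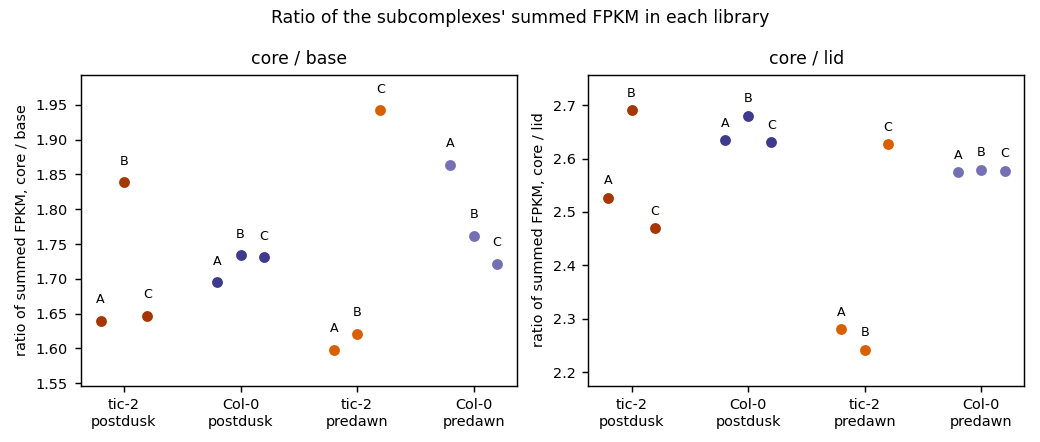
Ratio of summed core to summed base FPKM and of summed core to summed lid FPKM in each library (points, lettered by library), in the order tic-2 postdusk, Col-0 postdusk, tic-2 predawn and Col-0 predawn. The axes do not start at 0. The core to lid ratio lies between 2.574 and 2.579 in Col-0 at predawn and between 2.242 and 2.627 in tic-2 at predawn, where library C stands above the other libraries.

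On the log2 scale, the difference of the median deviations of core and base changed by -0.001 between tic-2 and Col-0 at postdusk and by -0.001 at predawn (SD of 0.104 within groups), and that of core and lid by -0.071 and -0.105 (SD of 0.081). The falls of the subcomplexes at postdusk thus differed by less than the spread between libraries, whereas core minus lid at predawn exceeded it. Library C of tic-2 at predawn stood apart from the others of its group. Its median deviation from the mean of those other libraries was 0.068 in the core, -0.232 in the base and -0.11 in the lid. Without library C of tic-2 at both harvests, the core minus base difference at predawn was -0.128 and the core minus lid difference -0.189. Core transcripts are also shorter, with a median exon length of 1244 bases against 1984 bases in the base and 1765 bases in the lid. Such deviations of single libraries from the others of their group followed exon length to a varying degree. Spearman correlations over 19142 genes ran from -0.447 (tic-2 postdusk B) to 0.4 (tic-2 postdusk C), and were -0.237 in tic-2 predawn C. Over the 52 genes they were -0.542, 0.399 and -0.453 in those libraries, and the genes of a library share its length profile. The part of transcript length in these ratios was not tested.

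Among the 52 genes, 20 subunits were encoded by a pair of genes with 80.3% to 94.4% identity over the aligned coding bases. At postdusk both genes of a pair were called lower in 13 pairs and 1 gene in the other 7 (19.8% of all genes were called lower). These counts restate the 42 calls among the 52 genes, and no share over other gene pairs was computed. The less expressed gene had the lower fold change in 12 of the 20 pairs, not far from an even split. The division within a pair moved by at least 5 percentage points without overlap between genotypes in a few cases, given as the share of the first gene in their summed FPKM. EMB2107 made up 85.5%, 85.7% and 88.3% of EMB2107 and RPN5B in tic-2 at predawn, against 80.3%, 81.7% and 81.9% in Col-0, a difference of 5.19 percentage points. At postdusk the difference was 2.94 percentage points, again with every tic-2 library above every Col-0 library. RPT1A made up 45.4%, 46.5% and 44.7% of RPT1A and AT1G53780 in tic-2 at predawn, against 56.0%, 48.4% and 50.7% in Col-0, a difference of -6.2 percentage points. At postdusk the difference was -6.37 percentage points, but the genotypes overlapped. AT1G53780 thus had the higher FPKM of that pair in every tic-2 library at predawn, although its FPKM also covers sequence that does not align with RPT1A.

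The shares of some pairs also differed between the harvests. AT2G32730 made up 69.2%, 69.8% and 68.3% of the RPN2 pair in tic-2 at postdusk against 56.2%, 59.7% and 63.9% at predawn, a difference of 9.21 percentage points. In Col-0 the difference between the harvests was 9.53 percentage points. RPN8A of the RPN8 pair changed in the other direction, by -6.1 percentage points in tic-2 and -7.23 in Col-0, and its harvests did not overlap in either genotype. How the authors assigned reads shared by gene copies is not given in the sources used here, so the shares are those of the deposited values.

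Genes that work with the proteasome were followed from a list of 23 assembly factors, activators, shuttle receptors, deubiquitinases and regulators, 21 of which were tested, 1 was below the filter and 1 was not analysed here. At postdusk 5 fell (19.8% of all genes did) and 1 rose (9.71% of all genes). At predawn 3 rose (13.1% of all genes did) and 0 fell (14.6% of all genes). The median log2 fold changes were -0.17 at postdusk and 0.014 at predawn, against -0.123 and -0.03 over all genes. The counts of 5 and 3 are near the shares of all genes, and after median-of-ratios rescaling 2 of the 21 fell at postdusk (9.71% of all genes did). AT1G67250, a gene of the maturation factor UMP1 that guides assembly of the core, had 25.8, 27.5 and 13.1 FPKM in tic-2 against 34.1, 43.0 and 38.3 FPKM in Col-0 at postdusk (log2 fold change -0.833, SE 0.211, limma adjusted p = 0.0129). Library C of tic-2 was again the lowest, and with only the groups of that contrast in the fit the adjusted p was 0.0564. UBP7, a ubiquitin-specific protease, had 6, 6.341 and 5.518 FPKM in tic-2 against 8.289, 9.774 and 8.996 FPKM in Col-0 (log2 fold change -0.526, SE 0.098, limma adjusted p = 0.00287). The other genes that fell were UBP6, UCH2 and AT3G53970, none of which was called after the rescaling (limma adjusted p = 0.0579, 0.135 and 0.193). RAD23C, a shuttle receptor that carries ubiquitinated proteins, was higher in tic-2 at both harvests, with 45.5, 40.3 and 47.4 FPKM in tic-2 against 37.3, 34.9 and 36.3 FPKM in Col-0 at postdusk (log2 fold change 0.285, limma adjusted p = 0.0274, lost in 6 of 21 alternative settings). At predawn it had 55.0, 56.7 and 49.2 FPKM in tic-2 against 37.2, 35.6 and 37.5 FPKM in Col-0 (log2 fold change 0.532, limma adjusted p = 0.000693). CDC48, the segregase that extracts ubiquitinated proteins, and NAC053, a NAC factor that binds proteasome gene promoters, rose at predawn by 0.324 and 0.26 on the log2 scale (limma adjusted p = 0.0336 and 0.04). CDC48 lost its call in 7 and NAC053 in 11 of 21 alternative settings, with adjusted p up to 0.102 and 0.146.

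**Figure D5:**
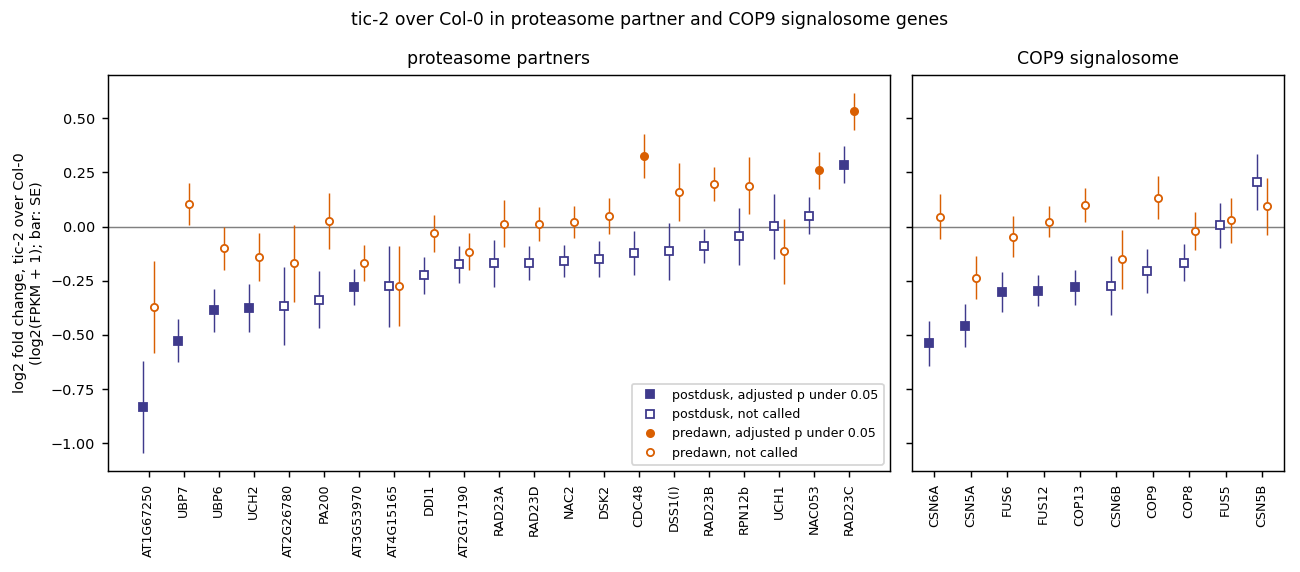
Log2 fold change, tic-2 over Col-0, at postdusk and predawn of the 21 tested genes of the partner list, which include subunit genes outside the 52. The 10 COP9 signalosome genes are also shown, with error bars of 1 SE. At postdusk AT1G67250 (-0.833), CSN6A (-0.539) and UBP7 (-0.526) are the lowest, and RAD23C (0.285) is the only gene called higher.

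The COP9 signalosome is a complex related in structure to the lid that removes NEDD8 from cullin ubiquitin ligases. It had 5 of 10 genes lower in tic-2 at postdusk (19.8% of all genes, as above) and 0 higher (9.71% of all genes). The 5 were CSN6A, CSN5A, FUS6, FUS12 and COP13, and the median was -0.277 over the 10 genes and -0.123 over all genes. At predawn 0 of 10 were called in either direction, with a median of 0.025. CSN6A (AT5G56280) had 17.2, 19.7 and 19.0 FPKM in tic-2 against 25.2, 25.6 and 32.1 FPKM in Col-0 at postdusk (log2 fold change -0.539, SE 0.105, limma adjusted p = 0.00362). CSN5A, a gene of the catalytic subunit, fell by 0.457 on the log2 scale. The other CSN5 gene, CSN5B, was not called, with 3.88, 4.62 and 3.4 FPKM in tic-2 against 3.3, 3.07 and 3.5 FPKM in Col-0 at postdusk. After median-of-ratios rescaling 2 of the 10 genes were lower (9.71% of all genes). Of 7 polyubiquitin and ubiquitin-activating enzyme genes, 1 (UBQ4) fell at postdusk (19.8% of all genes). The median there was -0.197 over the 7 and -0.123 over all genes. At predawn UBQ3 rose (13.1% of all genes) and UBQ14 fell (14.6% of all genes).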

How the data were processed

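RNA sequencing of 12 libraries was deposited as 1 table of FPKM values for 25729 genes. The authors worked on the TAIR10 build and named edgeR, TopHat and TopHat2, per the submitters' processing notes, which give neither versions nor roles. Counter, filters and strand setting: not given in the sources used here. The column names gave genotype and time. With TAIR10.1 exon lengths, which 25453 gene identifiers matched and 276 did not, 99.4% to 99.5% of the low values of each library were whole reads within 0.05 reads. The table had 0 other value columns.

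Values were tested as log2(FPKM + 1) with limma 3.58.1 in R 4.3.3, in 1 fit of the 4 groups with 8 residual and 3.78 prior degrees of freedom and a mean-variance trend. Genes with at least 1 FPKM in at least 3 libraries were kept, and 6455 were removed. Benjamini-Hochberg adjustment of p-values ran over all genes kept, and the scripts were tested on simulated data. A gene called lower "fell", and one called higher "rose". An SD is over 3 libraries. A level over several genes is the median over them of the deviation of log2(FPKM + 1) from each gene's mean over all libraries. Pair shares were computed from FPKM. Read totals limit precision, but intervals from them would cover counting error only.

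Genes are named by RefSeq symbol where there is one. The subunit genes, partner lists and marker lists were chosen with earlier results of these data known. Values per library are given, for each comparison of genotypes or harvests, for the 3 called members with the largest rise and the 3 with the largest fall. For the interaction the genotype effects at both harvests are given. The highest and lowest member of a subcomplex are given by their mean over all libraries. Shares per library are given for pairs whose share moved by at least 5 percentage points without overlap between genotypes, at the harvest where it did. Other members and listed genes were named after their values were seen. Alternatives were median-of-ratios and quantile scaling, other pseudocounts and filters, a fit of only the groups compared, a block by library letter, array weights, and each library left out.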

Additional observations from a re-analysis of the deposited data

Results flagged for a closer look

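The genotype effect of 12 subunit genes differed between the harvests, by the interaction term of the limma fit over all genes. The term was called lower for 8.59% of all genes. After median-of-ratios rescaling 3 of the 12 (RPT2a, RPN1A and AT4G19006) were still called, which is 5.77% of the 52 genes against 5.55% of all genes, and the others had adjusted p between 0.0512 (RPN10) and 0.156 (RPN12a). Each value below is the log2 fold change, tic-2 over Col-0, at postdusk minus that at predawn, with its Benjamini-Hochberg adjusted p. In the core, PAF2 differed by -0.821 (-1.02 at postdusk, -0.196 at predawn, adjusted p = 0.0319), PAB1 by -0.51 (-0.581 at postdusk, -0.071 at predawn, adjusted p = 0.0484) and PBG1 by -0.498 (-0.568 at postdusk, -0.07 at predawn, adjusted p = 0.0252). In the base, RPT2a differed by -0.614 (-0.576 at postdusk, 0.038 at predawn, adjusted p = 0.00373), RPT3 by -0.463 (-0.314 at postdusk, 0.149 at predawn, adjusted p = 0.0133) and RPN1A by -0.469 (-0.517 at postdusk, -0.048 at predawn, adjusted p = 0.0116).

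In the lid, AT4G19006 differed by -0.586 (-0.517 at postdusk, 0.069 at predawn, adjusted p = 0.00537), AT5G23540 by -0.491 (-0.394 at postdusk, 0.098 at predawn, adjusted p = 0.0379) and AT5G45620 by -0.479 (-0.42 at postdusk, 0.059 at predawn, adjusted p = 0.0498). EMB2107 differed by -0.361 (-0.201 at postdusk, 0.16 at predawn, adjusted p = 0.0294) and RPN12a by -0.35 (-0.217 at postdusk, 0.132 at predawn, adjusted p = 0.0403). The receptor RPN10 differed by -0.458 (-0.386 at postdusk, 0.073 at predawn, adjusted p = 0.0156). The values of PAF2 are uncertain because most of its exon bases are shared with a gene on the opposite strand, and its interaction missed the threshold in 12 of 21 alternative settings (adjusted p 0.00329 to 0.0808). That of RPT2a (5.99e-05 to 0.0146) and AT4G19006 (5.67e-05 to 0.0185) passed in all 21.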

How the results depend on the processing

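None of the 21 named results changed direction in its 21 alternative settings; the direction of other genes was not followed. Over these, 386 values kept their side of the threshold and 55 lost it, and 12 of these losses were of RPN5B at predawn. Counts below are of the 52 subunit genes, and levels are log2 differences of the median over them. Counts within a factor of 1.5 of the main fit are mostly not listed, nor are levels that moved by less than their SD within groups. Calls among all genes were counted for median-of-ratios and quantile scaling only. The counts of the other settings, here and in the next paragraphs, therefore have no share of all genes beside them. Median-of-ratios rescaling gave 23 genes lower in tic-2 at postdusk, 2 lower at postdusk in Col-0 and 3 in the interaction. Of all genes 1871, 3349 and 1069 were called so. The levels were -0.261 (tic-2 over Col-0 at postdusk), 0.117 (Col-0, postdusk over predawn) and -0.235 (interaction). Quantile normalization gave 29 genes lower in tic-2 at postdusk and 0 lower at predawn. It gave 11 higher and 2 lower at postdusk in Col-0, and 7 in the interaction. Of all genes 2275, 2707, 3591, 3576 and 1150 were called so. The levels were -0.312 (tic-2 over Col-0 at postdusk), 0.127 (Col-0, postdusk over predawn) and -0.258 (interaction). A pseudocount of 5 gave a level of -0.336 at postdusk, and no filter gave 0 genes lower at predawn. A fit of only the groups compared gave 7 lower at postdusk in tic-2, and 27 higher and 2 lower in Col-0. Array weights gave 5 higher and 6 lower at predawn, 3 higher and 28 lower at postdusk in tic-2, 28 higher and 3 lower in Col-0, and 40 in the interaction. Without both tic-2 C libraries there were 1 higher and 2 lower at predawn, 1 higher at postdusk in tic-2, 29 higher and 2 lower in Col-0, and 22 in the interaction. Core minus base was then -0.128 at predawn, 0.061 between harvests in tic-2 and 0.146 in the interaction, and core minus lid -0.189, 0.199 and 0.153. The cause of these changes was not tested.

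Leaving out 1 library at a time gave 0 to 4 genes lower at predawn, 0 to 1 higher at postdusk in tic-2, 9 to 26 higher and 0 to 2 lower at postdusk in Col-0, and 5 to 22 in the interaction. Genes lower at postdusk in tic-2 against Col-0 numbered 29 to 45. Genes lower at predawn were 2 without tic-2 postdusk B and 4 without tic-2 postdusk C. Core minus base ranged over -0.123 to 0.054 at predawn, -0.148 to 0.021 between harvests in tic-2 and -0.07 to 0.108 in the interaction. Core minus lid ranged over -0.188 to -0.054, 0.011 to 0.146 and -0.021 to 0.118, and the difference of the core to lid ratio at predawn over -0.315 to -0.123.

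The letters A, B and C were tried as a replicate block. It gave 39 genes lower at postdusk, 0 lower at predawn and 7 in the interaction. Same-lettered libraries did not deviate together (r of -0.327 to 0.206 over 18 pairs, 1 above 0.1), so the letters were used only as names. Genes at few reads, such as PAF2 with 40 reads in its lowest library, are limited by depth.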
